A study of Mus musculus with 9 samples.

Results

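Granulosa cells of the ovary and Sertoli cells of the testis arise from the same supporting cell precursors, and each fate is held by its own transcription factors. Described here are 10 genes that mark or maintain these fates, chosen by name and found among the 46078 genes of the count table, 1 row for each symbol. They comprise the granulosa factor Foxl2, the gonadal factors Gata4, Gata6, Zfpm2 and Wt1, which both sexes use, and the Sertoli genes Sox9, Sox8, Dmrt1, Gata1 and Aard. As background, Foxl2 keeps granulosa cells from taking on a Sertoli-like state, and estrogen receptors are known to act with it in the mouse ovary. Loss of both estrogen receptors is known to let Sertoli-like cells appear in the mouse ovary.

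RNA-seq was made from frozen ovaries of 5 wild type (WT) and 4 ERβ knockout (ERβKO) C57BL/6J mice, all labelled untreated. In the ERβKO mice exon 3 of Esr2, the ERβ gene, was deleted in the germline by crossing floxed mice with Rosa26-Cre deleter mice, so that every cell type lacks the exon, and the controls lacked Cre. The labels give no age for these mice. The study's methods give a wide age range, in weeks, for all of its mice together, and no age for each sequenced ovary. Whether age differed between the genotypes was therefore not tested. The ovaries were not staged by cycle. The treatment text of the labels describes a diet and ligand injections without saying which mice had them. Between 12353740 and 18717510 fragments were counted on genes in each library. WT replicates 4 and 5 carry library numbers above 200, and all other libraries numbers below 200. The labels do not say what these numbers stand for. Since only WT libraries have the higher numbers, an effect of the number series is partly confounded with genotype. Levels are the deposited FPKM, fragments scaled by gene length and library depth, and the counts were tested between genotypes by edgeR's quasi-likelihood method. A gene was called when its Benjamini-Hochberg adjusted p was under 0.05, its absolute log2 fold change over 0.4 and its mean FPKM over 1 in at least 1 genotype. WT replicate 2 stood apart from the other WT ovaries, at 9.43 on the first principal component of log2 CPM, between those ovaries (-43.8 to -15.6) and the ERβKO ovaries (19.4 to 35.3). Esr2 itself, counted over its whole length, had 16.7 ± 4.46 FPKM in WT and 16.1 ± 5.55 in ERβKO ovaries (SD, n = 5 and 4), so that this count does not separate the genotypes.

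Of the 10 factors, 9 passed the filter on low counts and were tested among 16722 genes, and Dmrt1 did not pass. By edgeR, Gata1 and Aard were called higher in ERβKO ovaries, 2 of the 9 tested, where 0.915% of all tested genes were called higher and 1.72% in either direction. None was called lower, where 0.801% of all tested genes were, and 4 of the 9 had an unadjusted p under 0.05, all of them with higher levels in ERβKO ovaries, where 19.8% of all tested genes did. DESeq2 called Gata1, Aard and Gata4 higher and none lower, against 2.19% higher and 2.47% lower of the 17283 genes to which it gave an adjusted p. Every ERβKO ovary lay above every WT ovary for Gata1, Aard and Gata4, as for 4.29% of the tested genes. The same held for Sox8, which passed the filter only through the ERβKO group and is left out of this count. None of the 10 had every ERβKO ovary below every WT ovary, as 3.31% of the tested genes had. The median log2 fold change was 0.46 over the 8 tested factors other than Sox8, and -0.00089 over all tested genes. The factors, and the lists used below, were chosen with earlier results of these data known, so the shares over all genes are not a test of them. In whole ovary RNA, more cells of a type and more RNA per cell cannot be told apart.

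**Figure D1:**
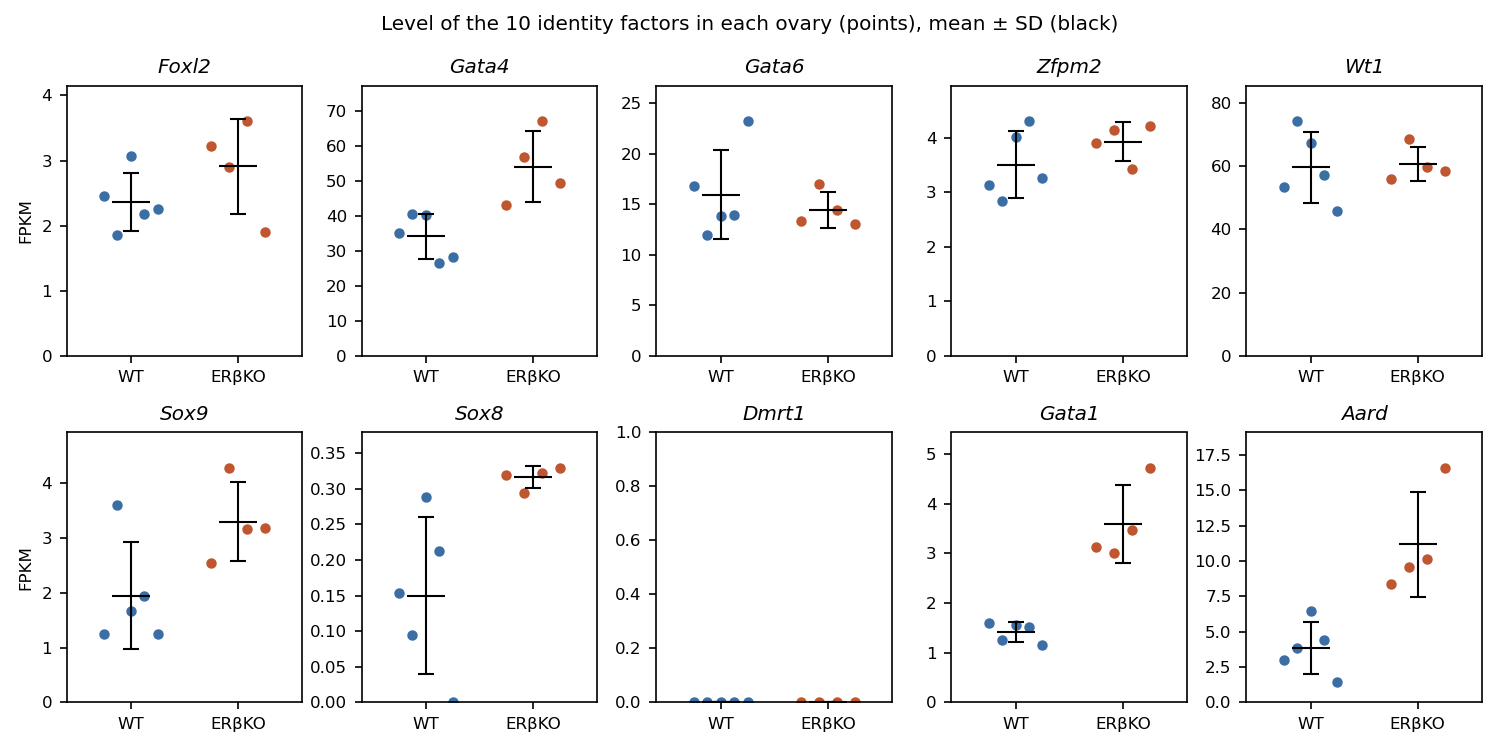
FPKM (y axis, from 0, its own scale in each panel) of the 10 factors in 5 WT and 4 ERβKO ovaries. Points are ovaries, the black bars are the mean ± SD, and the ERβKO points lie above all WT points for Gata4, Sox8, Gata1 and Aard, while Dmrt1 is listed at 0 in all 9 ovaries.

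By mean level over the 9 ovaries, the order was Wt1 (60.0 FPKM), Gata4 (43.0), Gata6 (15.3), Aard (7.09), Zfpm2 (3.69), Foxl2 (2.61), Sox9 (2.54), Gata1 (2.38), Sox8 (0.224) and Dmrt1 (0). Neighbours in this order were separated in range only between Gata4 and Gata6 and between Gata1 and Sox8. Foxl2, Sox9 and Gata1 overlapped so widely that Foxl2 exceeded Sox9 in 6 of 9 ovaries and Sox9 exceeded Gata1 in 5 of 9. Wt1, Gata4 and Gata6, which both gonads use, filled the top of the order, and the Sertoli genes Sox8 and Dmrt1 its end.

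RefSeq promoter sequences (build GRCm38.p6) were matched here for 3 of the 10 genes, Foxl2, Gata1 and Sox8. The 250 bases before the RefSeq start are shown for Gata1, the gene with the smallest adjusted p, and for Sox8, since both have ERβKO levels above every WT level. Capitals mark the letters GATA, the core of the motif that GATA factors read.
Gata1, chrX:7967911-7968160, minus strand: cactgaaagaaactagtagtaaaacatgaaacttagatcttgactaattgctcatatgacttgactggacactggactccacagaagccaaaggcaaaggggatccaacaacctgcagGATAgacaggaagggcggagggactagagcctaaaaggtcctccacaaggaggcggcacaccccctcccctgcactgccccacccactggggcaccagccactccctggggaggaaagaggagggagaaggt
Sox8, chr17:25570687-25570936, minus strand: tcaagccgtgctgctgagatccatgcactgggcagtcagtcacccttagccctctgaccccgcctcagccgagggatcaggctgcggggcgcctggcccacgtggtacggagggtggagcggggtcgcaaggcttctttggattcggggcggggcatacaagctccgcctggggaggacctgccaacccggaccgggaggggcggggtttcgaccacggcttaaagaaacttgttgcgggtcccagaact

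The letters GATA occur once in the Gata1 window and not in the Sox8 window, and 53.6% of 32851 promoter windows of this length hold them on either strand. The longer GATA motif AGATAA (9.99% of the windows) was in neither. Nor was the palindromic estrogen response element (0.0639%), the single arm AGGTCA (14.0%), or the NR5A motif CAAGGTCA (1.33%), which contains that arm. The forkhead motif GTAAACA (3.17%) and the SOX motif ACAAAG (16.5%) were also in neither window. The G and C share was 54.0% for Gata1 and 65.6% for Sox8, beside a median of 52.4% over all windows. As background, blood cells use a Gata1 promoter near the coding exons, while Sertoli cells use one farther upstream. GENCODE M21 lists a start of Gata1 10161 bases upstream of the one that follows this window, and the count per gene does not tell the starts apart.

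Foxl2 (ENSMUSG00000050397), a forkhead factor that maintains granulosa cells, was measured at 2.46, 1.86, 3.07, 2.18 and 2.25 FPKM in the WT ovaries (replicates 1 to 5). In the ERβKO ovaries (replicates 1 to 4) it reached 3.23, 2.91, 3.60 and 1.91 FPKM. The genotypes overlapped, since ERβKO replicate 4 lay below 4 of the 5 WT ovaries while 2 ERβKO ovaries lay above all of them. Between genotypes the log2 fold change was 0.29 (SE 0.23, 95% interval -0.20 to 0.79), with an adjusted p of 0.504 by edgeR. Its count was 47 to 105 fragments in an ovary. The files list it on chr9:98955607-98956847 of GRCm38, which is 38.1% of the length that GENCODE M21 gives the gene, so its FPKM refers to a short interval. Foxl2os, the noncoding gene that starts 308 bases away on the other strand, had counts of 1468 to 2706 and went from 31.1 ± 2.89 to 36.9 ± 4.25 FPKM (SD, n = 5 and 4). Its log2 fold change of 0.24 (SE 0.099) had an adjusted p of 0.225 by edgeR.

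Gata4 (ENSMUSG00000021944, chr14:63198922-63271692), a zinc finger factor needed for gonad formation and for granulosa gene expression, was measured at 35.1, 40.4, 40.2, 26.7 and 28.2 FPKM in the WT ovaries (replicates 1 to 5). In the ERβKO ovaries (replicates 1 to 4) it reached 43.1, 56.7, 67.0 and 49.4 FPKM. Every ERβKO ovary lay above every WT ovary, with the nearest pair at 43.1 and 40.4. The means were 34.1 ± 6.47 and 54.1 ± 10.3 FPKM (SD, n = 5 and 4), apart by a log2 fold change of 0.63 (SE 0.16, 95% interval 0.29 to 0.98). The two-sided exact permutation test gave an unadjusted p = 0.0159, the smallest that 5 against 4 ovaries allow. This p follows from the lack of overlap and adds nothing to it. Its edgeR adjusted p was 0.0628, so it was not called, whereas DESeq2 called it with an adjusted p of 0.00742. It was also called by edgeR without WT replicate 2 (adjusted p = 0.0335), without ERβKO replicate 1 (0.0426) and with no filter on low counts (0.0487). Over all alternatives its adjusted p ran from 0.00742 to 0.239. The highest came with the libraries numbered below 200, where the log2 fold change was 0.48. That fit leaves out WT replicates 4 and 5, which had the lowest WT values (26.7 and 28.2 FPKM).

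Gata6, the other GATA factor of granulosa cells, stood at 16.8, 12.0, 13.8, 14.0 and 23.2 FPKM in the WT ovaries (replicates 1 to 5) and at 13.3, 17.0, 14.4 and 13.0 FPKM in the ERβKO ovaries (replicates 1 to 4). All ERβKO values fell within the WT range, whose top was set by WT replicate 5. For Gata6 the log2 fold change was -0.18 (SE 0.18, 95% interval -0.58 to 0.22; edgeR adjusted p = 0.622), and 0.0031 without WT replicate 5. Gata6 and the noncoding 1010001N08Rik start within 57 bases of each other on opposite strands and overlap, with 1.43% of the exon bases of Gata6 shared. The ratio of Gata4 to Gata6 within an ovary was 2.08, 3.35, 2.89, 1.90 and 1.21 in WT and 3.22, 3.33, 4.62 and 3.78 in ERβKO replicates. Apart from WT replicate 2, every WT ovary had a lower ratio than every ERβKO ovary. The mean log2 ratio was higher by 0.78 in ERβKO ovaries (two-sided exact permutation test, p = 0.0476, 0.159 adjusted over 10 ratios).

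Zfpm2 (ENSMUSG00000022306), also called FOG2, binds GATA4 and is needed for gonad development. It was at 3.14, 2.84, 4.02, 4.30 and 3.25 FPKM in the WT ovaries (replicates 1 to 5) and at 3.91, 4.15, 3.43 and 4.21 FPKM in the ERβKO ovaries (replicates 1 to 4). The genotypes overlapped, with all ERβKO values within the WT range. Its log2 fold change was 0.12 (SE 0.13, 95% interval -0.18 to 0.41; edgeR adjusted p = 0.677). The log2 ratio of Zfpm2 to Gata4 differed by -0.50 between genotypes, which the two-sided exact permutation test did not separate (p = 0.127, 0.212 adjusted over 10 ratios).

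Wt1 (ENSMUSG00000016458), a zinc finger factor of the supporting cells and the surface epithelium, had the highest level of the 10. Its values were 53.3, 74.1, 67.4, 57.0 and 45.7 FPKM in the WT ovaries (replicates 1 to 5) and 56.0, 68.5, 59.7 and 58.3 FPKM in the ERβKO ovaries (replicates 1 to 4). Every ERβKO ovary fell between the lowest and the highest WT ovary. For Wt1 the log2 fold change was 0.029 (SE 0.090), and its 95% interval, -0.17 to 0.23, was the narrowest of the 9 (edgeR adjusted p = 0.890). The noncoding Wt1os, which starts 19 bases away on the opposite strand, went from 6.97 ± 0.801 to 7.07 ± 1.34 FPKM (SD, n = 5 and 4; edgeR adjusted p = 0.844).

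Sox9 (ENSMUSG00000000567, chr11:112782224-112787760), the SOX factor that drives Sertoli cell fate, was measured at 1.25, 3.60, 1.67, 1.94 and 1.24 FPKM in the WT ovaries (replicates 1 to 5). In the ERβKO ovaries (replicates 1 to 4) it reached 2.55, 4.28, 3.16 and 3.19 FPKM. The overlap came from WT replicate 2, which exceeded 3 of the 4 ERβKO ovaries, while the other 4 WT ovaries lay below all ERβKO ovaries. The means were 1.94 ± 0.974 and 3.29 ± 0.720 FPKM (SD, n = 5 and 4), apart by a log2 fold change of 0.77 (SE 0.29, 95% interval 0.13 to 1.41). It was not called, with an adjusted p of 0.179 by edgeR and 0.0959 by DESeq2 (two-sided exact permutation test of the levels, p = 0.0635). Without WT replicate 2, edgeR called it with a log2 fold change of 1.10 and an adjusted p of 0.0135, and in no other alternative was it called.

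Sox8 (ENSMUSG00000024176, chr17:25565892-25570686), a relative of Sox9 that can act in its place in the testis, was low, with 1 to 23 fragments counted in an ovary. It was at 0.153, 0.0952, 0.289, 0.212 and 0 FPKM in the WT ovaries (replicates 1 to 5) and at 0.319, 0.294, 0.321 and 0.330 FPKM in the ERβKO ovaries (replicates 1 to 4). The ERβKO values were close together, with a coefficient of variation of 4.81%, and lay just above the highest WT value. For Sox8 the log2 fold change was 0.99 (SE 0.46, 95% interval -0.016 to 2.00; edgeR adjusted p = 0.260). Its mean FPKM was under 1 in both genotypes, so it could not be called, and it passed the count filter through the ERβKO group. Of its exon bases, 10.6% are shared with the noncoding 2810468N07Rik on the opposite strand, which had 0.806 ± 0.247 FPKM in WT and 1.17 ± 0.431 in ERβKO ovaries (SD, n = 5 and 4). Since the sources do not state whether strand was used in counting, fragments of this pair may have been mixed.

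Dmrt1 (ENSMUSG00000024837), a DM domain factor that keeps Sertoli cells from turning into granulosa cells, is listed at 0 FPKM in all 9 ovaries. Its count was 0 in 7 of them, 1 in ERβKO replicate 1 and 3 in ERβKO replicate 2. A count of 0 allows up to 3 counts, or 0.182 to 0.243 CPM in these 7 libraries, for counting error only. A difference in Dmrt1 was not detectable at this depth. Sry, the Y-linked switch that starts the Sertoli program, had no count in any library.

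Gata1 (ENSMUSG00000031162, chrX:7959260-7978071) is a GATA factor of Sertoli cells and, in blood, of the red cell, mast cell and megakaryocyte lines. It was measured at 1.61, 1.26, 1.55, 1.51 and 1.16 FPKM in the WT ovaries (replicates 1 to 5) and at 3.13, 3.02, 3.47 and 4.73 FPKM in the ERβKO ovaries (replicates 1 to 4). The lowest ERβKO ovary had 3.02 FPKM and the highest WT ovary 1.61, so the genotypes were well apart. The means were 1.42 ± 0.195 and 3.58 ± 0.785 FPKM (SD, n = 5 and 4), which is 2.48-fold by the fit (95% interval 1.82 to 3.36). The log2 fold change was 1.31 (SE 0.20), with an adjusted p of 0.0135 by edgeR and 6.33e-07 by DESeq2. Gata1 was called in each of the 9 fits that left out 1 ovary, with adjusted p from 0.0123 to 0.0466. It was not called with the 3 WT libraries numbered below 200 (adjusted p = 0.0875), where its log2 fold change was 1.24. The counts behind these values were 37 to 61 fragments in WT and 120 to 159 in ERβKO ovaries.

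Other genes of the Gata1-expressing blood lines were measured beside it. Of the erythroid markers, 5 were tested and none was called in either direction by edgeR or DESeq2, nor had any an unadjusted p under 0.05. Klf1, Epor and Slc4a1, genes of the red cell line, were too low to be tested, at mean levels of at most 0.220 FPKM in either genotype. The summed erythroid level, mostly the globins Hbb-bs and Hba-a2, was 61.2 to 229 FPKM in WT and 109 to 276 in ERβKO ovaries. Mast cell and eosinophil markers summed to 58.6 to 122 and 79.0 to 97.5 FPKM, and megakaryocyte markers to 4.40 to 8.24 and 5.54 to 8.43. There was no call by edgeR or DESeq2 among the 6 and 4 genes tested. Of these genes 2 and 0 had an unadjusted p under 0.05, where 19.8% of all tested genes did. All 3 sums overlapped between the genotypes. The median log2 fold change of the tested genes was 0.44 for mast cell and eosinophil markers, with 5 of the 6 above 0. It was 0.091 for erythroid and -0.028 for megakaryocyte markers. In the mast cell list Hdc and Kit, the latter also an oocyte and theca gene, had the highest levels.

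Aard (ENSMUSG00000068522, chr15:52040107-52045722), a gene known from Sertoli cells, was measured at 3.01, 3.84, 6.43, 4.43 and 1.41 FPKM in the WT ovaries (replicates 1 to 5). In the ERβKO ovaries (replicates 1 to 4) it reached 8.38, 9.58, 10.1 and 16.6 FPKM. Every ERβKO ovary lay above every WT ovary, and the WT ovaries themselves spread widely, with a coefficient of variation of 48.3%. The means were 3.83 ± 1.85 and 11.2 ± 3.69 FPKM (SD, n = 5 and 4), which is 2.88-fold by the fit (95% interval 1.73 to 4.78). The log2 fold change of 1.52 (SE 0.33) had an adjusted p of 0.0460 by edgeR and 0.000343 by DESeq2. The edgeR call was close to the threshold and was lost in 7 of the 9 fits that left out 1 ovary. The adjusted p was 0.110, 0.0838 and 0.0680 without WT replicates 1, 4 and 5, and 0.0533, 0.111, 0.0912 and 0.128 without ERβKO replicates 1 to 4. The log2 fold change stayed between 1.27 and 1.78 in these fits.

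**Figure D2:**
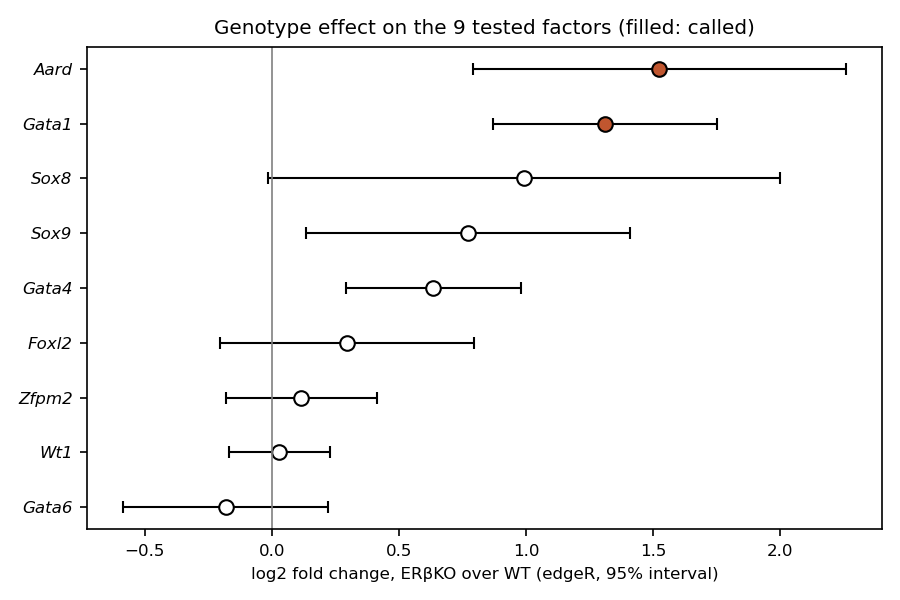
Log2 fold change (x axis, ERβKO over WT, edgeR) of the 9 tested factors, with bars for the 95% interval; filled points were called. The intervals of Aard, Gata1, Sox9 and Gata4 lie above 0, and those of Sox8, Foxl2, Zfpm2, Wt1 and Gata6 include it.

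**Figure D3:**
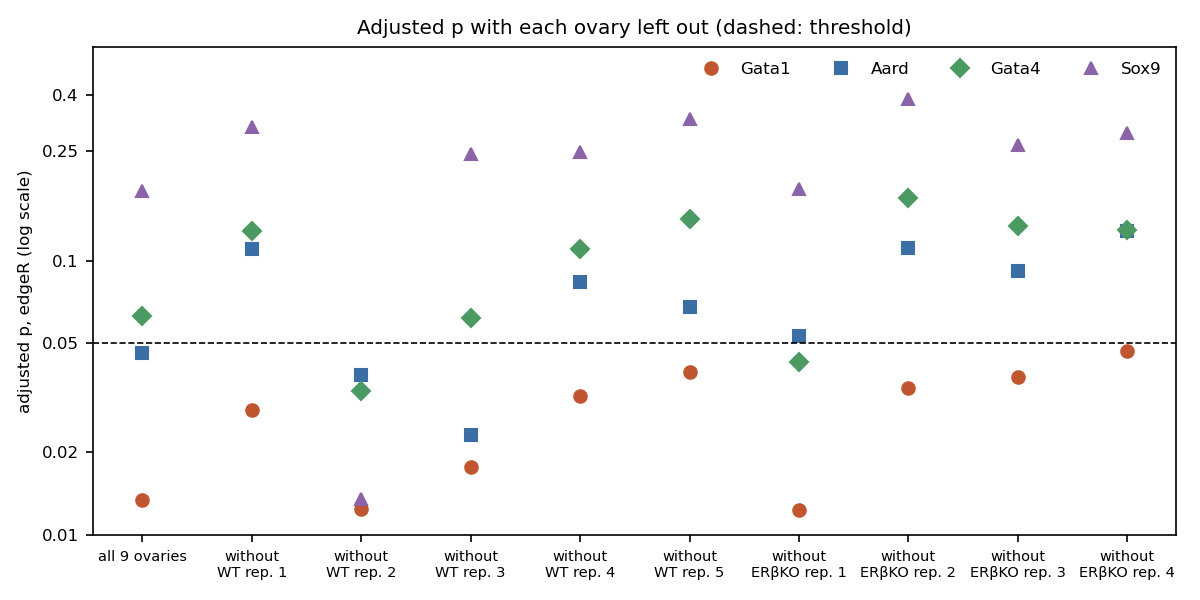
Adjusted p (y axis, log scale, edgeR) of Gata1, Aard, Gata4 and Sox9 with all 9 ovaries and with each ovary left out; the dashed line is the threshold of 0.05. Gata1 stays below the line throughout (0.0123 to 0.0466), and leaving out WT replicate 2 puts all 4 genes below it.

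The number of the 10 called higher was therefore 4 without WT replicate 2 (Gata1, Aard, Gata4 and Sox9) and 1 without WT replicate 1, 4 or 5 or ERβKO replicate 2, 3 or 4. It was 0 with the libraries numbered below 200, which leave 3 WT ovaries. Over all tested genes, 153 of 16722 were called higher with all 9 ovaries and 488 of 16542 without WT replicate 2. In the fits that gave 1 of the 10, from 42 (without ERβKO replicate 2) to 84 (without WT replicate 4) of all tested genes were called higher. With the libraries numbered below 200, 30 of 16840 were. Single ovaries also took up the ends of many ranges. WT replicate 5 was the lowest WT ovary for 5 of the 9 detected genes and ERβKO replicate 4 the highest ERβKO ovary for 4. WT replicate 2 was the highest WT ovary for 3 genes (Gata4, Wt1 and Sox9) and the lowest for 3 (Foxl2, Gata6 and Zfpm2).

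Ratios to Foxl2 within an ovary compare Sertoli genes with the granulosa factor apart from library scaling. The ratio of Gata1 to Foxl2 ran from 0.521 to 0.707 in WT and from 0.963 to 2.40 in ERβKO ovaries, with no overlap. For Aard it ran from 0.644 to 2.06 in WT and from 2.55 to 8.31 in ERβKO ovaries, again with none. The mean log2 ratio differed by 0.99 for Gata1 and by 1.35 for Aard (two-sided exact permutation tests, p = 0.0159 each, 0.0794 adjusted over 10 ratios). The ratio of Sox9 to Foxl2, 0.527 to 1.88 in WT and 0.796 to 1.64 in ERβKO ovaries, overlapped (exact p = 0.238, 0.265 adjusted). So did those of Sox8 (exact p = 0.127), Gata4 (0.190), Gata6 (0.127) and Wt1 (0.444), while no ratio is given for Dmrt1, which was listed at 0. None of the other 9 ratios passed after adjustment over all 10, nor over the 9 alone, a family chosen after the data were seen (0.0714 for Gata1 and Aard). With Foxl2os in place of Foxl2, a denominator chosen after the data were seen, the differences were 1.02 for Gata1 and 1.38 for Aard (exact p = 0.0159 each, 0.0794 adjusted).

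**Figure D4:**
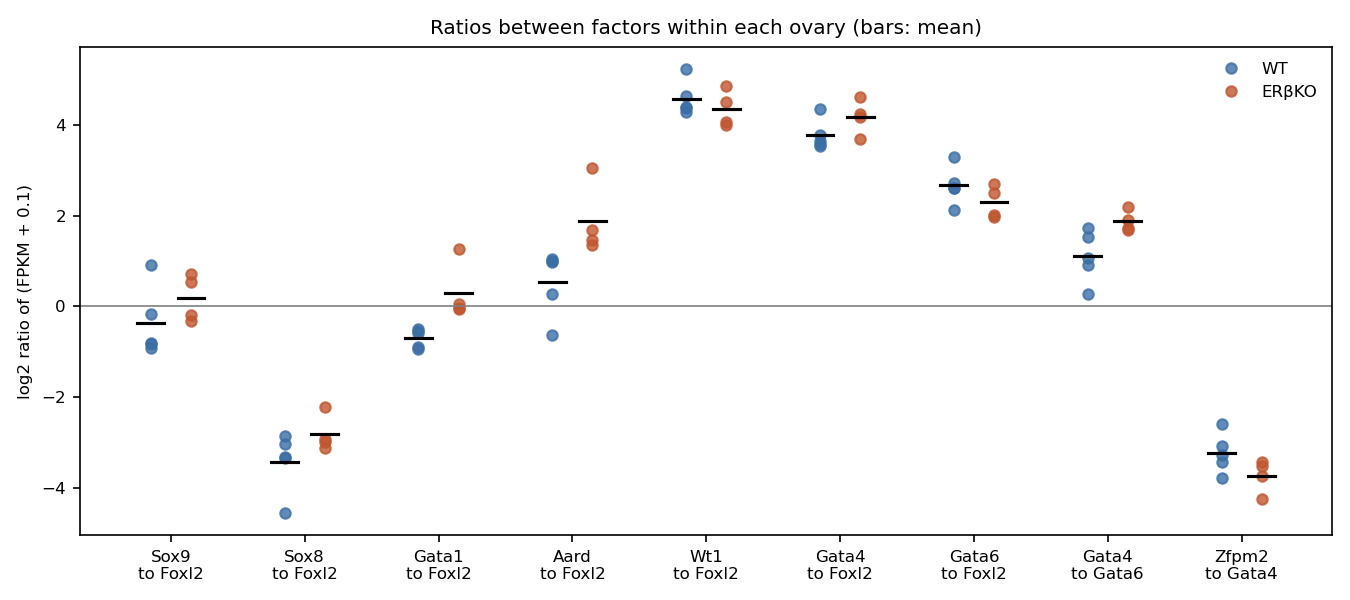
Log2 ratio (y axis) of FPKM, each with 0.1 added, between pairs of factors in the same ovary; points are 5 WT and 4 ERβKO ovaries and bars are means. Gata1 and Aard relative to Foxl2 separate the genotypes, while 1 ERβKO ovary stands above the others in both.

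The genes around these factors in sex determination were read from the same fit, in which 1.72% of all tested genes were called by edgeR in either direction. Of 15 genes on the ovarian side of the pathway, all tested, Rspo1, a secreted activator of Wnt signalling, was called higher (9.46 ± 0.735 to 13.3 ± 0.717 FPKM, log2 fold change 0.47, edgeR adjusted p = 0.0226). Runx1, a factor of fetal granulosa cells, was called lower (8.71 ± 2.27 to 4.39 ± 0.424 FPKM, log2 fold change -0.99, edgeR adjusted p = 0.0158; SD, n = 5 and 4 for both). Runx1 was not called without ERβKO replicate 2 (0.0671) or 4 (0.0618), nor Rspo1 without WT replicate 1 (0.0615) or ERβKO replicate 2 (0.0928), 3 (0.0636) or 4 (0.0724). DESeq2 called Rspo1 higher, and Runx1 and the ligand Wnt4 lower. Wnt4 was at 22.4 ± 7.75 FPKM in WT and 9.72 ± 3.66 in ERβKO mice (SD, n = 5 and 4), with an edgeR adjusted p of 0.0503. Ctnnb1 and Nr5a2 had the highest levels of this list and were called by neither tool. For Ctnnb1 every ERβKO ovary lay below every WT ovary, as for 3.31% of the tested genes. It had an adjusted p of 0.0757 by edgeR and 0.00926 by DESeq2, but its DESeq2 log2 fold change of -0.33 was within the limit for a call. The list's median log2 fold change was 0.019, beside -0.00089 over all tested genes.

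On the testicular side, 14 of 17 genes were tested. The hedgehog ligand Dhh was called higher (3.83 ± 1.18 to 9.09 ± 0.500 FPKM, SD, n = 5 and 4, log2 fold change 1.23, edgeR adjusted p = 0.0148), and 25.2% of its exon bases are shared with a gene on the other strand. Gdnf, a growth factor that Sertoli cells give to germ cells, was also called higher (1.82 ± 0.663 to 3.96 ± 0.647 FPKM, SD, n = 5 and 4, log2 fold change 1.12, edgeR adjusted p = 0.0393). The list's median log2 fold change was 0.056, and its most abundant genes, Nr5a1 and Fgfr2, were not called. Dhh was not called without ERβKO replicate 2 (0.0528) or 4 (0.0513). Gdnf was called only without WT replicates 2 and 5 among the fits that left out 1 ovary, with adjusted p of up to 0.130 in the others.

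Among the 12 GATA factors and partners, all tested, edgeR called Gata1 alone and DESeq2 Gata1 and Gata4, and the list's median log2 fold change was 0.13. Ldb1, a bridging protein of GATA complexes, was the most abundant, at 51.0 ± 3.59 FPKM in WT and 52.7 ± 4.20 in ERβKO ovaries (SD, n = 5 and 4). Zfpm1, or FOG1, the partner of GATA1 in blood cells, was at 1.62 ± 0.132 and 1.91 ± 0.248 FPKM (SD, n = 5 and 4; edgeR adjusted p = 0.430). None of the 13 other SOX genes tested was called by edgeR or DESeq2, and 2 had an unadjusted p under 0.05, where 19.8% of all tested genes did. Their median log2 fold change was 0.29, and Sox4 and Sox12 were the most abundant. Sox12 had an edgeR adjusted p of 0.0380, but its log2 fold change of 0.39 was under the limit for a call. Of 7 other DMRT genes, 3 were tested, Dmrta1, Dmrtc1a and Dmrt2, and edgeR called none. DESeq2 called Dmrt2, the 1 gene of these with an unadjusted p under 0.05, with WT ovaries at 0.258 ± 0.0920 FPKM and those of ERβKO mice at 1.16 ± 1.20 (SD, n = 5 and 4). ERβKO replicate 1 had 2.94 FPKM of Dmrt2, and without it the ERβKO mean was 0.562 FPKM, under the limit of 1 for a call, and the edgeR log2 fold change went from 2.15 to 1.11. Among the 11 bipotential gonad factors tested, edgeR called none and DESeq2 1 higher (Osr1), where DESeq2 called 2.19% of all genes with an adjusted p higher. Of the 11, 3 had an unadjusted p under 0.05, beside 19.8% of all tested genes, and the median log2 fold change was 0.16.

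**Figure D5:**
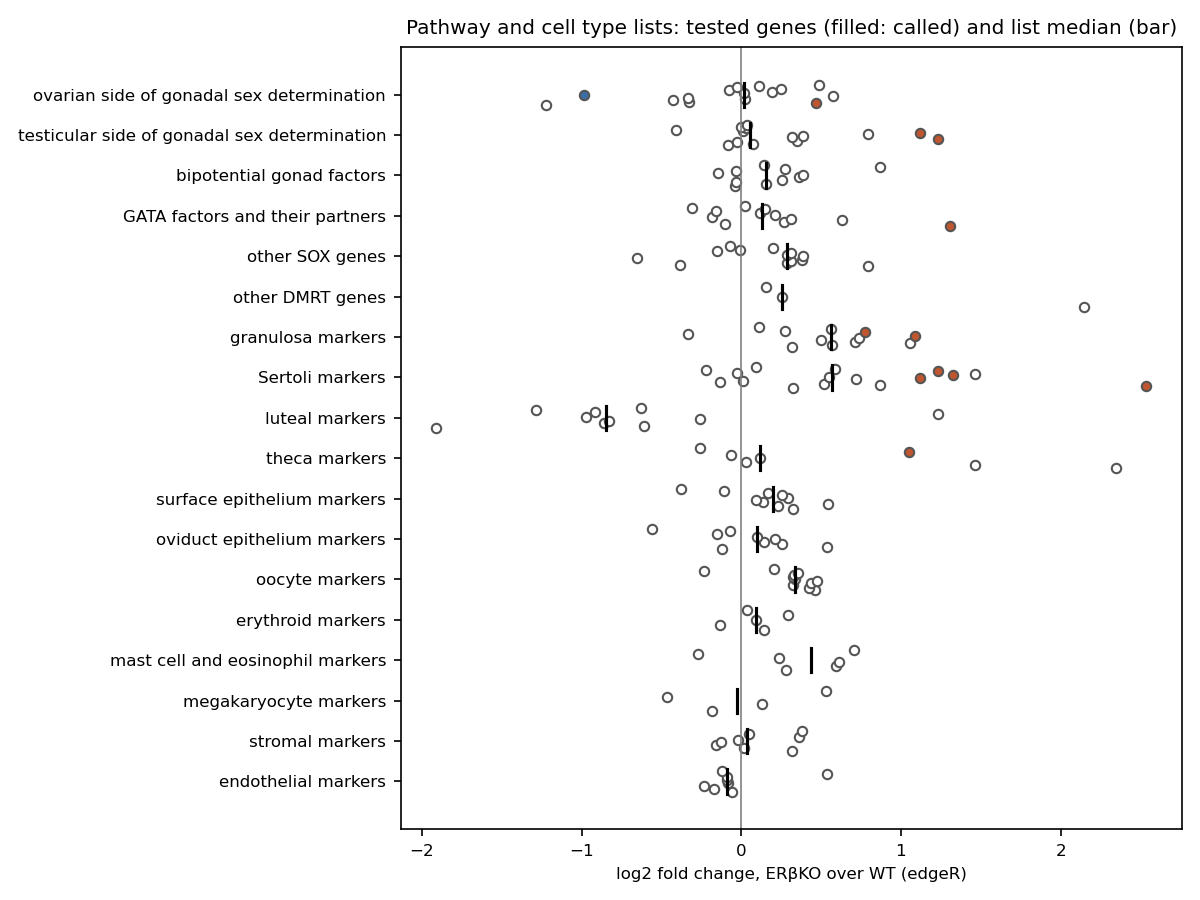
Log2 fold change (x axis, ERβKO over WT, edgeR) of the tested genes of 6 pathway lists and 12 cell type lists; filled points were called, red higher and blue lower, and black bars are list medians. The medians of the granulosa and Sertoli lists lie at 0.56 and 0.57, and that of the luteal list at -0.84.

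Markers of whole cell types were measured beside these factors, and their part in the results was not tested. Of 12 granulosa markers tested, edgeR called 2 higher, Inhbb (46.2 ± 6.14 to 100.5 ± 20.8 FPKM) and Hsd17b1 (48.2 ± 9.03 to 85.1 ± 18.5 FPKM; SD, n = 5 and 4), and DESeq2 called 6, where these tools called 0.915% and 2.19% of all tested genes higher. The summed granulosa level was 994 to 1197 FPKM in WT and 1294 to 1698 in ERβKO ovaries, without overlap. Such a sum is weighted towards the most abundant markers, so it need not describe each gene of the list. Of the 12 granulosa markers, 11 had a log2 fold change above 0. An unadjusted p under 0.05 was found for 6, where 19.8% of all tested genes had one. Inhbb, a subunit of activin and inhibin, was called in all 9 fits that left out 1 ovary. Hsd17b1, which makes estradiol from estrone, was called only without WT replicates 2 and 3, with adjusted p of up to 0.109 in the others.

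Of 18 Sertoli markers, 16 were tested and 4 were called higher by edgeR and 7 by DESeq2, where 0.915% and 2.19% of all tested genes were. None was called lower by either, and their median log2 fold change was 0.57. Besides Dhh and Gdnf, which both lists hold, these were Defb19, a defensin gene (13.7 ± 2.14 to 35.0 ± 7.75 FPKM, SD, n = 5 and 4), and Rhox8, a homeobox gene that granulosa cells also express (1.39 ± 0.748 to 8.55 ± 4.37 FPKM, SD, n = 5 and 4). Dhh too is not particular to Sertoli cells, since the study names human DHH among granulosa-enriched genes. Defb19 was called in all 9 fits that left out 1 ovary. Rhox8 was called only without WT replicate 2 or ERβKO replicate 1, with adjusted p of up to 0.118 in the others. The summed Sertoli level, mostly Clu and Krt18, which other ovarian cells make too, was 508 to 652 FPKM in WT and 617 to 785 in ERβKO ovaries.

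The luteal markers had a median log2 fold change of -0.84 with no edgeR call among 10. DESeq2 called 2 lower (Star and Cyp11a1), where it called 2.47% of all genes with an adjusted p lower. Of the 10, 4 had an unadjusted p under 0.05, where 19.8% of all tested genes did. The luteal sum, led by Hsd3b1 and Cyp11a1, was 3135 to 6755 FPKM in WT and 2592 to 4080 in ERβKO ovaries. Of 7 theca markers tested, Aldh1a1 was called higher (521 ± 85.7 to 1092 ± 233 FPKM, SD, n = 5 and 4, edgeR adjusted p = 0.0139), though not without ERβKO replicate 2 (0.0528) or 4 (0.0520), and Cyp17a1 was the next most abundant. DESeq2 called Aldh1a1 and Hsd17b3 higher, and the theca markers summed to 608 to 817 FPKM in WT and 860 to 1916 in ERβKO ovaries, without overlap. This sum was mostly Aldh1a1, so it does not describe the list as a whole. The median log2 fold change of the 7 tested theca markers was 0.12, with 5 of the 7 above 0. No gene was called by edgeR among the tested markers of surface epithelium (10), oviduct epithelium (9), oocytes (11), stroma (8) or endothelium (8). Of these lists, 2, 1, 0, 3 and 2 genes had an unadjusted p under 0.05, beside 19.8% of all tested genes. DESeq2 called 1 gene of these 5 lists, Vwf of endothelium, where it called 2.19% of all genes with an adjusted p higher. Their most abundant genes were Krt18 and Krt19, Ovgp1 and Epcam, Gdf9 and Zp2, Dcn and Col1a2, and Egfl7 and Pecam1. Dcn had a DESeq2 adjusted p of 0.0137, but its DESeq2 log2 fold change of 0.32 was under the limit for a call. Oviduct markers were present in every library, with sums of 1374 to 2502 FPKM in WT and 1610 to 2043 in ERβKO ovaries.

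The genes whose log2 CPM profile over the 9 ovaries, each standardized, lay closest to that of Gata1 were Smpd4, Zfp362 and Thra, with mean absolute differences of 0.157, 0.162 and 0.186 SD. For Aard they were Bok, Klhl13 and Tnik, at 0.166, 0.194 and 0.200 SD. Of these 6, Thra alone was called, with 30.6 ± 2.87 FPKM in WT and 41.4 ± 3.29 in ERβKO ovaries (SD, n = 5 and 4; edgeR adjusted p = 0.0317). This likeness is a description over 9 ovaries that share the genotype difference.

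Of the 10 factors, 5 have a gene on the opposite strand that starts within 1000 bases of their own start, as have 21.8% of the tested genes. Besides the partners of Foxl2, Gata6, Wt1 and Sox8 given above, this is BC006965, which starts 248 bases from Sox9 and had counts of 0 to 4. None of the 4 partners that were tested was called. Gata4, Zfpm2, Dmrt1, Gata1 and Aard have no such neighbour and share no exon base with a gene on the other strand.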

How the data were processed

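Whole ovaries of 5 WT and 4 ERβKO mice gave 1 library each, from polyadenylated RNA with a stranded kit. Per the study's methods and the submitters' processing notes, the authors used bcl2fastq 2.20.0.422, Trim Galore, STAR, featureCounts and StringTie with the mouse genome GRCm38 (mm10); the strand setting of counting and the other versions are not given in the sources used here. The deposited counts are fragments per gene with no scaling. The authors took FPKM and TPM from StringTie. The deposited coverage values were used for no result. The reference annotation, GENCODE M21, may not be the authors' own.

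Genes were filtered with filterByExpr (16722 of 46078 kept), normalized by TMM and fitted by genotype in edgeR 4.0.16 (R 4.3.3), with p-values adjusted by Benjamini-Hochberg over all tested genes; the SE was taken from the fold change and its F statistic. The common biological coefficient of variation was 0.179. The thresholds are those of the study, whose tool DESeq2 (1.42.0) was an alternative. Levels per ovary were compared as log2(FPKM + 0.1) with two-sided exact permutation tests of 5 against 4 ovaries (SciPy 1.17.1). The exact p-values of the levels are given without adjustment. The alternatives were DESeq2, its size factors or upper-quartile factors in edgeR, no filter, a minimum of 10 counts per library, a replicate block, each ovary left out, the libraries numbered below 200, limma 3.58.1 on log2(FPKM + 1) or log2(FPKM + 0.1), and TPM or a pseudocount of 1 or 0.01 for the levels and ratios. The fits were tested on simulated data. With 1 library per mouse, p-values measure the spread between these mice.

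Named are the 10 factors, every called gene and the 2 most abundant genes of each list, the 3 genes most like each called factor, and Esr2; Zfpm1, Sox12, Dmrt2, Osr1, Wnt4, Hsd17b3, Star, Vwf, the untested red cell markers and the neighbouring genes were named after their values were seen. The factors and lists were chosen with earlier results of these data known. Values of 1 listed gene are not reported here.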

Additional observations from a re-analysis of the deposited data

Results flagged for a closer look

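In 3 ratios, 1 ovary lay far from the rest of its genotype by Dixon's test, and these were the 3 flagged of 38 groups tested. By chance this test flags a small share of such groups, near its 5% level. ERβKO replicate 4 had a log2 ratio of Gata1 to Foxl2 of 1.26, while the other 3 ERβKO ovaries lay between -0.055 and 0.050; this ovary had both the highest Gata1 (4.73 FPKM) and the lowest Foxl2 (1.91 FPKM) of its genotype. WT replicate 2 had a log2 ratio of Gata4 to Foxl2 of 4.37, where the other WT ovaries ran from 3.55 to 3.78. WT replicate 5 had a log2 ratio of Sox8 to Foxl2 of -4.56, where the other WT ovaries ran from -3.34 to -2.87; Sox8 was listed at 0 FPKM there, with 1 fragment counted.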

How the results depend on the processing

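Over 18 alternatives, Gata1 was called in 16, Aard in 8, Gata4 in 4 and Sox9 in 1, and Foxl2, Gata6, Zfpm2, Wt1 and Sox8 in none that could test them. None of the 10 genes was called lower in any alternative. The count called higher, 2 as reported, was 1 with limma at either pseudocount, 0 with the libraries numbered below 200, and 1 to 4 with each ovary left out in turn. Over all tested genes, the number called higher ran from 42 to 488 with each ovary left out, beside 153 as reported. The count of ratios with an exact p under 0.05, 3 as reported, was 0 with the libraries numbered below 200, where 3 against 4 ovaries allow no p under 0.0571. This count was 3 without WT replicate 2, 2 with any other ovary left out, and 4 with a pseudocount of 1. Gata6 and Wt1, both near 0, changed sign. The log2 fold change of Gata6 ran from -0.27 to 0.0031 with each ovary left out and was 0.0053 with the replicate block, 0.0031 without WT replicate 5 and 0.0089 with the libraries numbered below 200; the difference of its log2 levels was 0.032 and 0.029 in the last 2, and -0.21 at its lowest. For Wt1 the log2 fold change ran up to 0.079 and was -0.024 with the block, -0.025 without WT replicate 5, -0.020 without ERβKO replicate 2 and -0.0041 with the libraries numbered below 200, and the level difference was -0.046, -0.017 and -0.090 in the last 3. The difference of the Sox8 to Foxl2 ratio was -0.0061 with a pseudocount of 1. The causes were not tested.

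Replicate numbers did not pair the mice, since ovaries of the same number had deviations correlated at 0.095, 0.13, -0.043 and -0.011. With the replicate number as a block, 1 of the 10 genes was called higher (Aard, adjusted p = 0.0481; Gata1, 0.0563) and 155 genes in all in place of 287. Over all genes, edgeR called 60 without ERβKO replicate 2 and 919 without WT replicate 2, and DESeq2 805. With 47 to 105 fragments of Foxl2 and at most 23 of Sox8 in an ovary, small differences in these genes could not be seen.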
